A study of Homo sapiens with 21 samples.

Results

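Fatty acid oxidation and ketogenesis were followed through 29 genes, named by symbol for their place in mitochondrial and peroxisomal oxidation or in ketone body metabolism, of the 19683 genes in the count table. No measured value entered that choice, although results of these data were already known when the genes were listed. The cells were HepG2/C3A, a subclone of a human hepatoma line with hepatocyte traits, wild type by the labels and without any added treatment. Spheroids of Days 3, 7, 10, 14, 21 and 28, formed in ultra-low attachment plates and then held in a rotating ClinoReactor, were compared with the same cells in 2D monolayer culture, with 3 libraries in each of the 7 groups. Counts came from TempO-Seq, in which pairs of detector oligos are ligated on their target RNA and sequenced, so that a level depends on its probe and is compared here between libraries and not between genes. All groups are 1 cell line, the replicates are labelled biological but not as separate cultures, and p-values therefore measure only the spread between these libraries. Levels are given as CPM after TMM scaling of library sizes, means are given ± SD of 3 libraries, log2 fold changes ± SE, and a gene was called, or said to have risen or fallen, at an adjusted p under 0.05 by edgeR's quasi-likelihood test with Benjamini-Hochberg adjustment over 12345 genes.

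Fatty acids enter the cell's oxidation pathways as CoA esters made by acyl-CoA synthetases, cross the inner mitochondrial membrane as carnitine esters, and are then shortened by a repeated cycle of dehydrogenation, hydration, a further dehydrogenation and thiolysis. Peroxisomes run a related cycle on very long, branched and dicarboxylic chains and on bile acid side chains. The electrons of the acyl-CoA dehydrogenases pass through the electron transfer flavoprotein to the respiratory chain. In liver the acetyl-CoA is in part turned into ketone bodies during fasting, and the nuclear receptor PPARA switches on many genes of both organelles.

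The libraries held 18760232 to 43443262 counts. Hepatocyte markers were present, with a summed level over 8 of 8 markers of 50451 to 52299.7 CPM at Day 3 and 36673 to 45123 CPM at Day 28, against 10493 to 11321 CPM in the monolayer, and COL1A1 and DCN of fibroblasts, STAB2 of endothelium and PTPRC and MARCO of blood cells had no count in any library. The 5 fibroblast markers summed to at most 3.29 CPM and the 5 endothelial ones to at most 2.15 CPM in any library. The 4 blood markers measured, of which CD68 and LYZ had counts, summed to 218 to 223 CPM at Day 3 and 78.0 to 88.3 at Day 28, against 64.6 to 69.2 CPM in the monolayer, and 4 cholangiocyte markers to 779 to 835 and 412 to 462 CPM, against 612 to 624 CPM. Summed levels of 4 proliferation markers were 801 to 837 CPM at Day 3, 951 to 1020.1 at Day 10, 144 to 242 at Day 14 and 141 to 157 at Day 28, against 28.4 to 37.3 CPM in the monolayer. The part of these shifts in the values below was not tested, and in bulk RNA fewer cells with a transcript and less RNA per cell cannot be told apart.

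Most of the pathway was higher in spheroids from the first day sampled and stayed higher for the whole course. Of the 29 genes, 27 passed the filter on low counts, and 22 of them were called higher and 1 lower at Day 3 against the monolayer, where 40.1% of all genes tested were higher and 37.8% lower. The median log2 fold change of the 27 was 0.86, beside 0.06 over all genes tested. At Day 28 the counts were 24 higher and 3 lower, with a background of 38.5% and 34.8%, and the median was 1.07 beside 0.08. Day 10 gave 20 higher and 2 lower (background 40% and 37.9%). Among the rises, ACADVL (0.21, adjusted p = 0.0330 by edgeR) lost its call in 8 of 21 fits that left out 1 library. ACAD11 (0.80, adjusted p = 0.0368 by edgeR) lost its call in 4 of 21. The 2 genes lower at Day 10 were ACSL1 and ETFA, and the call of ETFA (-0.16 ± 0.065) was lost in 6 of 21 fits that left out 1 library: monolayer replicate 1 (adjusted p = 0.0837 by edgeR), Day 10 replicate 2 (0.0631), Day 3 replicate 1 (0.0522), 2 (0.0524) or 3 (0.0520), or Day 7 replicate 2 (0.0509). It was also lost with no filter on low counts (0.0804) and with libraries scaled by size alone (0.785). Days 7, 14 and 21 each had 22 higher, with 1, 2 and 3 lower in that order (background 40.4% and 38.4%, 38.7% and 35.7%, 39.3% and 35.1%). The 6 comparisons with the monolayer share its 3 libraries. Together the 29 genes took 0.458 to 0.473% of all counts in Day 3 libraries and 0.42 to 0.473% in Day 28 libraries, against 0.221 to 0.236% in monolayer libraries. These sums weigh genes by the counts of their probes, so a few genes dominate them. ECI1 alone held 30729 of 62948 such counts in monolayer replicate 1 and 58703 of 176163 in Day 3 replicate 1.

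**Figure D1:**
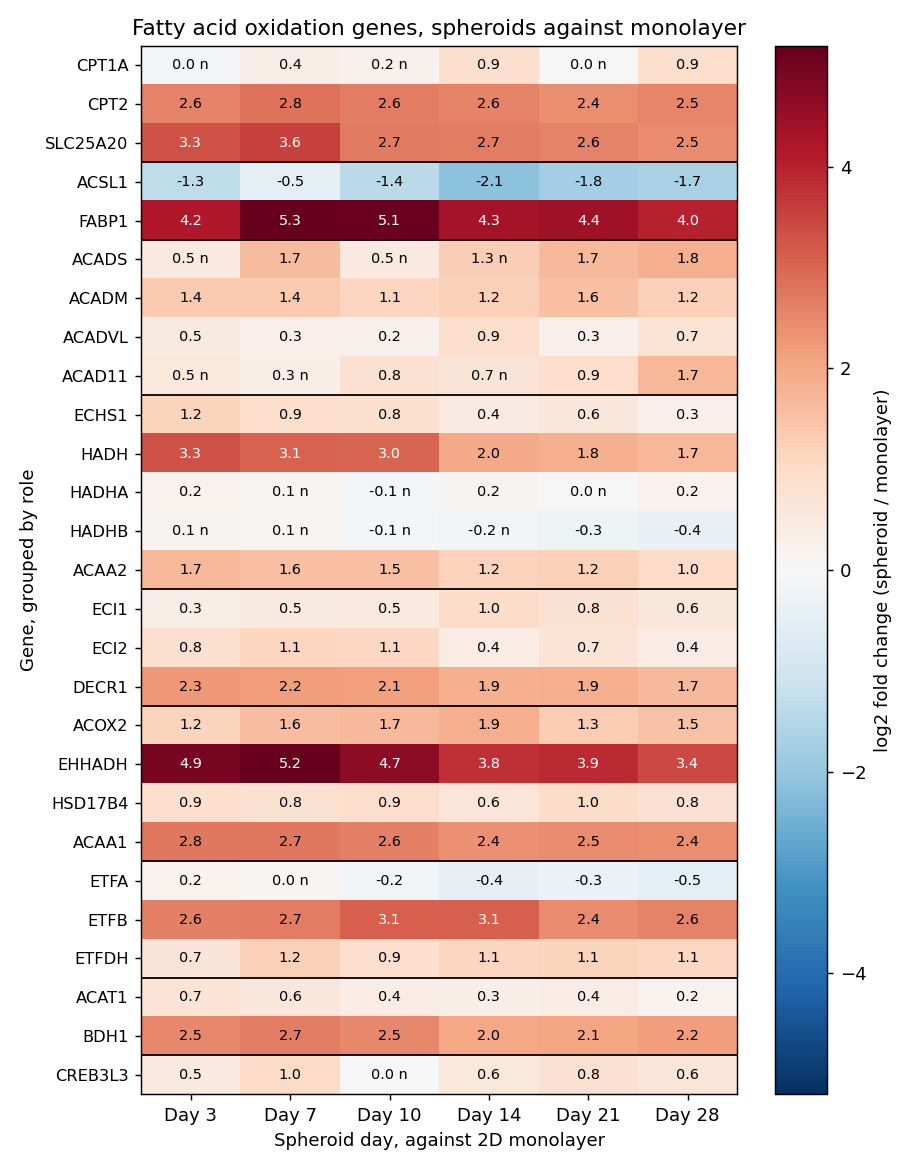
Log2 fold change of the 27 tested genes (rows, grouped by role between the black lines) at each spheroid day against the 2D monolayer (columns), with the value in each cell and "n" where the change was not called. EHHADH and FABP1 are the darkest rows on every day, ACSL1 is blue throughout, and the rows of HADHA, HADHB and ETFA are pale.

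The 2 untested genes were at or near 0. PDK4, a kinase that blocks pyruvate dehydrogenase and spares glucose during fasting, had 9 counts in all 21 libraries together: 0 CPM in every monolayer, Day 3, Day 10 and Day 21 library, 0, 0.0269 and 0 CPM at Day 7, 0, 0.0349 and 0.0334 at Day 14 and 0, 0.175 and 0 at Day 28. ACADL, a long-chain acyl-CoA dehydrogenase, had 16 counts, none of them in the monolayer or at Day 3. A count of 0 over the 3 libraries of a group allows up to 0.0308 CPM at Day 3 and 0.0320 CPM in the monolayer (3 counts over the group, counting error only). No difference between groups was detectable for either at this depth.

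Of the 3 steps of the carnitine shuttle, 2 were higher at Day 3, where 40.1% of all genes tested were higher. SLC25A20, the carrier that exchanges acylcarnitine for carnitine across the inner membrane, and CPT2, which remakes the CoA ester inside the matrix, were several times higher on every spheroid day. In the earlier spheroids SLC25A20 had 107, 107 and 103 CPM on Day 3, 123, 129.5 and 122 on Day 7 and 59.9, 69.8 and 77.7 on Day 10. Later spheroids held 65.6, 67.2 and 70.1 on Day 14, 61.4, 59.4 and 70.4 on Day 21 and 54.8, 58.1 and 61.3 CPM on Day 28, against 9.15, 10.7 and 11.7 CPM in the monolayer. The Day 3 and Day 7 libraries were the highest and no spheroid library overlapped the monolayer, with log2 fold changes of 3.32 ± 0.094 at Day 3 and 2.46 ± 0.094 at Day 28. Over the first 3 days sampled, CPT2 stood at 70.0, 75.0 and 74.4 CPM on Day 3, 87.9, 83.6 and 92.8 on Day 7 and 80.3, 74.9 and 75.6 on Day 10. The last 3 days had 75.5, 74.4 and 72.9 on Day 14, 69.8, 62.5 and 67.3 on Day 21 and 82.1, 63.6 and 68.9 CPM on Day 28, against 13.7, 10.6 and 12.8 CPM in the monolayer. It rose by 2.57 ± 0.092 at Day 3 and 2.54 ± 0.092 at Day 28 and was highest at Day 7. CPT1A, the liver form of the outer-membrane enzyme and the step inhibited by malonyl-CoA, was not called at Day 3. Up to Day 10, spheroids held CPT1A at 9.20, 7.92 and 7.16 CPM on Day 3, 9.77, 12.2 and 10.1 on Day 7 and 9.68, 8.25 and 11.2 on Day 10. After that its level was 14.7, 13.7 and 17.2 on Day 14, 9.38, 7.56 and 8.78 on Day 21 and 15.05, 16.7 and 16.1 CPM on Day 28, against 6.69, 9.75 and 8.46 CPM in the monolayer. Its Day 3 libraries overlapped the monolayer (-0.04 ± 0.15, not called), as did those of Day 10 and Day 21 (0.04 ± 0.15 at Day 21, not called). All Day 7 libraries of CPT1A were above the monolayer, the lowest (9.77 CPM) only just above its highest (9.75 CPM). All Day 14 and Day 28 libraries were also above the monolayer (0.86 ± 0.15 and 0.93 ± 0.15). CPT1A spans chromosome 11, 68754620 to 68844410, on the minus strand, and SLC25A20 chromosome 3, 48856931 to 48898993, on the minus strand. Gene positions were looked up by symbol in GENCODE 29 (GRCh38).

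The genes that bind and activate fatty acids moved in opposite directions. FABP1, the liver fatty acid binding protein that carries long chains through the cytosol, rose to 17.8 times its monolayer level at Day 3 (4.15 ± 0.15) and 39.5 times at Day 7 (5.30 ± 0.15). FABP1 read 369, 408 and 408 CPM on Day 3, 773, 917 and 942 on Day 7 and 769, 791 and 776 on Day 10. It then read 457, 488 and 374 on Day 14, 505, 481 and 429 on Day 21 and 431, 291 and 348 CPM on Day 28, against 25.5, 19.7 and 21.7 CPM in the monolayer. Levels at Days 7 and 10 stood above those of all other days, and no spheroid library came near the monolayer. ACSL1, a long-chain acyl-CoA synthetase of mitochondria and endoplasmic reticulum, was the 1 gene of the 27 that fell at Day 3. Early spheroids had ACSL1 at 10.8, 12 and 9.28 CPM on Day 3, 15.7, 18.7 and 21.1 on Day 7 and 9.31, 9.45 and 11.1 on Day 10. The older spheroids had 6.43, 6.05 and 5.64 on Day 14, 6.66, 8.52 and 8.01 on Day 21 and 7.10, 9.94 and 7.68 CPM on Day 28, against 26.3, 29.8 and 23.2 CPM in the monolayer. The monolayer libraries were above all spheroid libraries, with Day 7 the nearest, and the log2 fold change was -1.31 ± 0.14 at Day 3 and -1.67 ± 0.14 at Day 28.

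Of the 23 genes searched among the 29, 3 hold a sequence like DR1 within 250 bases before their RefSeq start. DR1 is the half-site AGGTCA repeated after 1 free base, known to be bound by PPARA with its partner RXRA and by HNF4A. The search took both strands and allowed at most 2 mismatches. Of 27305 promoters of this length, 2.56% held such a match. The promoter table has 23 of the 29 genes. ACAD11, DECR1, ACOX2, EHHADH, ACAA1 and ETFDH are not in it and were not searched. The matches, in capitals, lie 68 to 56 bases before the start in FABP1, 76 to 64 in ACAA2 and 222 to 210 in CREB3L3, with 2, 2 and 1 mismatches in that order. Every promoter with a match is shown, whatever the change of its gene. All 3 genes were higher in spheroids at Day 3, as were 22 of the 27 tested. The sequences, from RefSeq on GRCh38.p14, read 5′ to 3′ on the strand of each gene. They lie at chr2:88128063-88128312 (minus strand), chr18:49813534-49813783 (minus strand) and chr19:4153381-4153630 (plus strand). The NRF1 motif, GCGCA followed directly by TGCGC, searched in the same way with at most 1 mismatch, was found in none of the 23 and in 6.97% of all promoters, so it overlapped no DR1 match. A match is a likeness of letters only, and no binding was measured.
FABP1: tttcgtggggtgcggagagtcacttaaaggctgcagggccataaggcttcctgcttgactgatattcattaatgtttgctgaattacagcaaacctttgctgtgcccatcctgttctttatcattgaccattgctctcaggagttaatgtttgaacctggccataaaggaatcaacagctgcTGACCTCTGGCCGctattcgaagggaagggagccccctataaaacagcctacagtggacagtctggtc
ACAA2: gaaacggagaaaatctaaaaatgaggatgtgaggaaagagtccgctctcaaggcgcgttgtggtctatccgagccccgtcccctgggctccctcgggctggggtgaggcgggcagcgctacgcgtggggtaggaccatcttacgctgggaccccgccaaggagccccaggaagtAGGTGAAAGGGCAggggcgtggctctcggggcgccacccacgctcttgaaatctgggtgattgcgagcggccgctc
CREB3L3: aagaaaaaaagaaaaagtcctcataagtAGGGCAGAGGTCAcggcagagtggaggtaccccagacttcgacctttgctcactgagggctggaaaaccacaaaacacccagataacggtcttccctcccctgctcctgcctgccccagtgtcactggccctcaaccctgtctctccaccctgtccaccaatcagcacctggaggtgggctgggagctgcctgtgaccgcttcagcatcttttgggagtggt

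**Figure D2:**
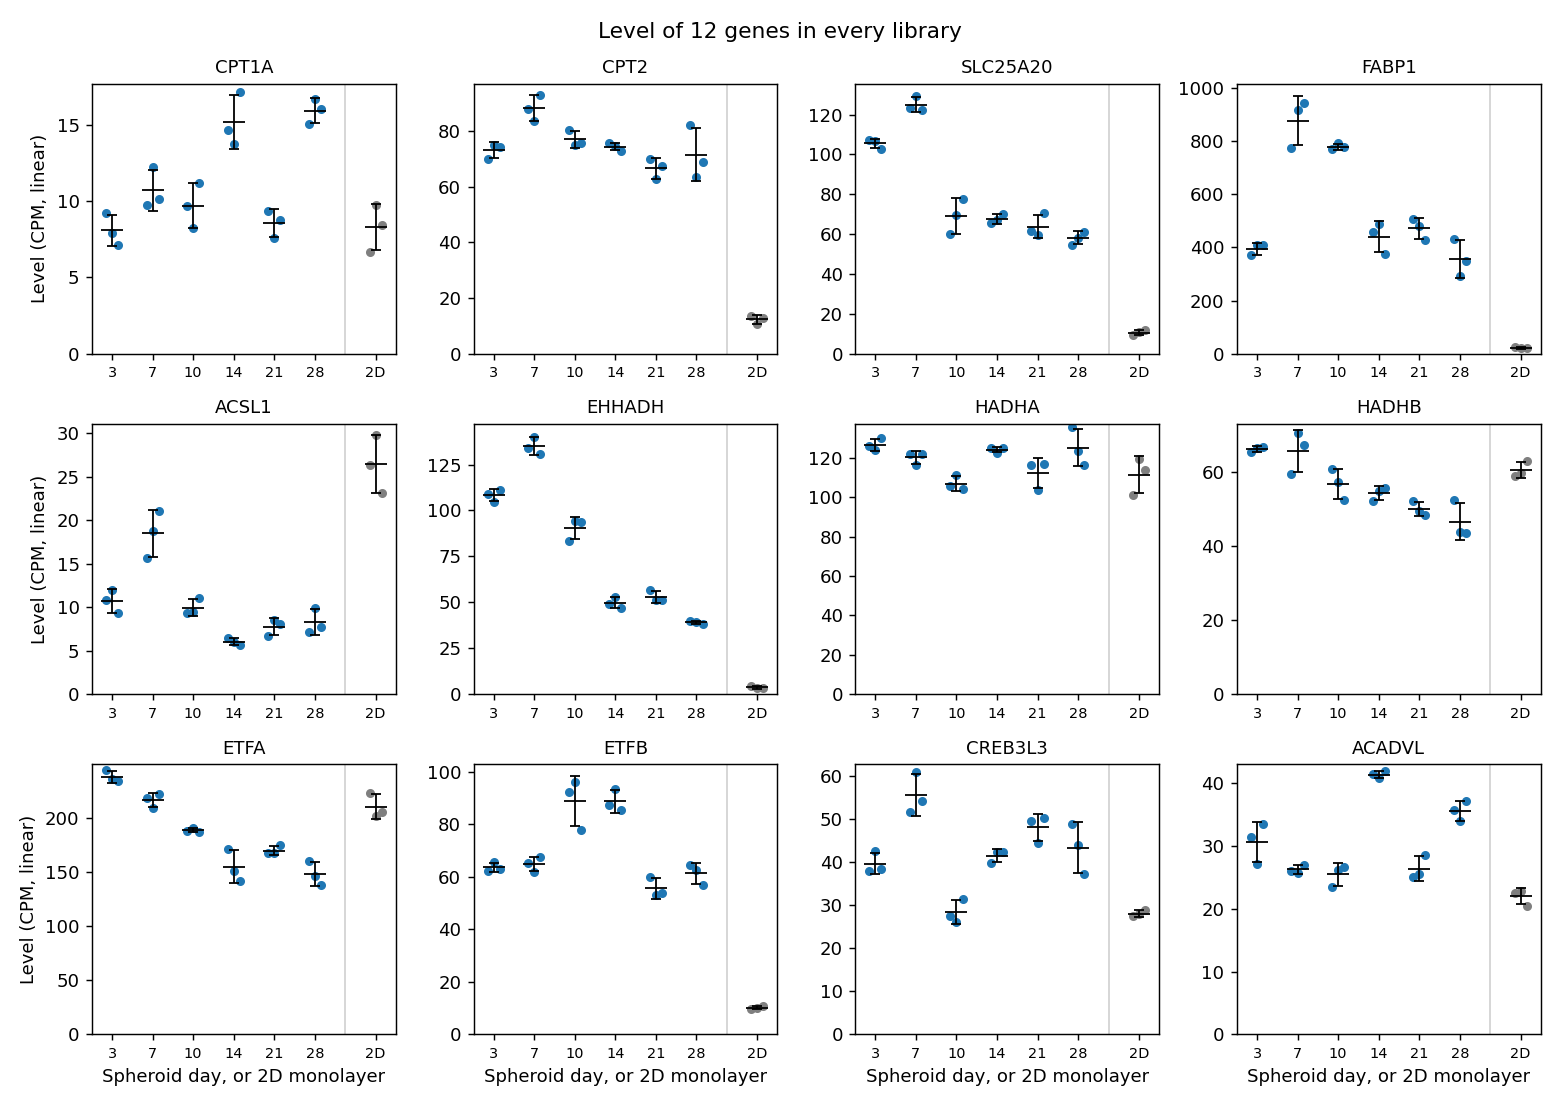
Level in CPM on a linear axis of 12 genes in every library (points), with the mean and SD of each group of 3 (black bars), for spheroid days from left to right and the 2D monolayer at the far right. FABP1, EHHADH, CPT2, SLC25A20 and ETFB are near the axis in the monolayer and high in spheroids, and ACSL1 is highest in the monolayer. HADHA, HADHB and ETFA differ little at Day 3, and HADHB and ETFA are below the monolayer at Day 28.

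Among the acyl-CoA dehydrogenases, which take the first step of each cycle, the medium-chain and very-long-chain enzymes were higher in spheroids. The level of ACADM was 40.4, 39.5 and 39.4 CPM on Day 3, 44.7, 36.5 and 37.2 on Day 7 and 34.2, 34.1 and 31.1 on Day 10. From then on it was 36.5, 37.1 and 34.5 on Day 14, 46.0, 37.7 and 54.0 on Day 21 and 39.1, 31.7 and 38.2 CPM on Day 28, against 14.7, 15.8 and 15.7 CPM in the monolayer. ACADM, the medium-chain enzyme, was thus above the monolayer in all 18 spheroid libraries and rose by 1.37 ± 0.11 at Day 3 and 1.23 ± 0.11 at Day 28. ACADVL, for very long chains, stood at 30.7 ± 3.2 CPM at Day 3, 41.4 ± 0.55 at Day 14 and 35.6 ± 1.6 at Day 28, against 22.0 ± 1.3 CPM in the monolayer (SD, n = 3 each), with changes of 0.48 ± 0.090 and 0.69 ± 0.090 at Days 3 and 28. ACAD11, which acts on long chains including hydroxylated ones, was low. In the earlier spheroids ACAD11 had 1.39, 1.59 and 3.26 CPM on Day 3, 1.48, 2.18 and 1.69 on Day 7 and 1.78, 2.69 and 2.84 on Day 10. Later spheroids held 1.74, 1.85 and 3.10 on Day 14, 3.76, 2.46 and 1.76 on Day 21 and 4.001, 6.69 and 3.03 CPM on Day 28, against 1.61, 1.37 and 1.27 CPM in the monolayer. It was not called at Day 3 (0.54 ± 0.35) and rose by 1.71 ± 0.34 at Day 28, where the replicates were also most spread. ACADS, the short-chain enzyme, had 232 counts in all and levels of 0.211 ± 0.091 CPM at Day 3 and 0.536 ± 0.17 CPM at Day 28, against 0.142 ± 0.17 CPM in the monolayer. Its call at Day 28 (1.84 ± 0.76, adjusted p = 0.0304 by edgeR) did not hold without monolayer replicate 1 (adjusted p = 0.132) or 2 (0.104) and without Day 28 replicate 1 (0.0635) or 2 (0.102).

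Later steps of the mitochondrial cycle held enzymes that rose at Day 3 and a complex whose subunits changed little on that day. ECHS1, the short-chain enoyl-CoA hydratase, rose by 1.15 ± 0.068 at Day 3 (192 ± 2.3 CPM, against 86.6 ± 7.0 in the monolayer) and was 0.25 ± 0.068 above it at Day 28. ACAA2, the mitochondrial thiolase, rose by 1.73 ± 0.076 at Day 3 and 0.98 ± 0.076 at Day 28, with 112 ± 3.2 and 66.1 ± 7.2 CPM, against 33.6 ± 1.2 CPM in the monolayer. HADH, the short-chain hydroxyacyl-CoA dehydrogenase, rose by 3.31 ± 0.40 at Day 3 but was counted only 1019 times in all. Over the first 3 days sampled, HADH stood at 2.49, 2.01 and 3.65 CPM on Day 3, 2.45, 1.99 and 2.35 on Day 7 and 1.94, 2.34 and 2.36 on Day 10. The last 3 days had 1.41, 1.15 and 0.634 on Day 14, 1.52, 0.600 and 0.798 on Day 21 and 1.12, 0.731 and 0.893 CPM on Day 28, against 0.339, 0.254 and 0.228 CPM in the monolayer. Libraries of Days 3, 7 and 10 were highest, those of the later days lower, and all were above the monolayer.

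HADHA and HADHB encode the alpha and beta subunits of the mitochondrial trifunctional protein, which carries out the last 3 steps of the cycle on long chains. Up to Day 10, spheroids held HADHA at 126, 124 and 130.1 CPM on Day 3, 122, 116 and 122 on Day 7 and 106, 111 and 104 on Day 10. After that its level was 125, 123 and 125 on Day 14, 117, 104 and 117 on Day 21 and 136, 124 and 117 CPM on Day 28, against 101, 119 and 114 CPM in the monolayer. HADHB read 65.4, 66.7 and 66.9 CPM on Day 3, 59.5, 70.8 and 67.3 on Day 7 and 60.8, 57.4 and 52.6 on Day 10. It then read 52.2, 55.0 and 55.8 on Day 14, 52.2, 49.5 and 48.4 on Day 21 and 52.5, 43.9 and 43.7 CPM on Day 28, against 59.0, 59.8 and 63.2 CPM in the monolayer. HADHA libraries of Days 7, 10, 21 and 28 overlapped the monolayer and those of Days 3 and 14 lay just above it. HADHB libraries of Day 3 lay above the monolayer, those of Days 7 and 10 overlapped it and those of Days 14, 21 and 28 lay below it. HADHA was 0.18 ± 0.067 higher at Day 3 and 0.17 ± 0.067 at Day 28. The first did not pass without monolayer replicate 1 (adjusted p = 0.278 by edgeR) or Day 3 replicate 3 (0.0570), and the second without monolayer replicate 1 (0.281) or Day 28 replicate 1 (0.239) and in a fit of only these 2 groups (0.0784). HADHB was not called at Day 3 (0.13 ± 0.078; 0.34 and called when libraries were scaled by size alone) and fell by 0.38 ± 0.079 on the log2 scale at Day 28. HADHA spans chromosome 2, 26190635 to 26244726, on the minus strand, and HADHB 26243170 to 26290468 on the plus strand, so that in GENCODE 29 their 5′ ends overlap by 1557 bases. The sources used here do not give the stretch that the probes read.

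The RefSeq start sites of HADHA and HADHB face away from each other with 306 bases between them (26244632 and 26244939, GRCh38.p14), so the 250 bases before HADHB are also sequence upstream of HADHA. They are shown, in lower case and on the plus strand, because these 2 genes had the smallest Day 3 changes, with ETFA and CPT1A, of the 27 genes. The region is chr2:26244689-26244938.
HADHB: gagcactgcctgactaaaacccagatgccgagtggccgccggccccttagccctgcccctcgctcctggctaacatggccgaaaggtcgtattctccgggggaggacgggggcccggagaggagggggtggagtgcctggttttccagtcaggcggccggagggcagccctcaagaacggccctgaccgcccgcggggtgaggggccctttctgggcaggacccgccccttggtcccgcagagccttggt

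Auxiliary enzymes for unsaturated chains were all higher at Days 3 and 28, where 40.1% and 38.5% of all genes tested were higher. DECR1, the dienoyl-CoA reductase of mitochondria, rose most of them. Early spheroids had DECR1 at 98.1, 106 and 95.9 CPM on Day 3, 101, 89.3 and 93.0 on Day 7 and 93.2, 89.0 and 89.2 on Day 10. The older spheroids had 77.8, 76.0 and 70.7 on Day 14, 77.2, 76.6 and 77.2 on Day 21 and 74.7, 68.4 and 58.4 CPM on Day 28, against 20.5, 19.9 and 21.7 CPM in the monolayer. All spheroid libraries were above the monolayer, those of Day 3 highest on average, with changes of 2.27 ± 0.080 at Day 3 and 1.70 ± 0.080 at Day 28. ECI1, the mitochondrial enoyl-CoA isomerase, stood at 1492 ± 42 CPM at Day 3 and 2344 ± 170.0 CPM at Day 14, against 1212 ± 90 CPM in the monolayer, and rose by 0.30 ± 0.080 and 0.95 ± 0.081. ECI2, the isomerase of peroxisomes and mitochondria, rose by 0.84 ± 0.13 at Day 3 and 0.38 ± 0.13 at Day 28, the second call being lost without Day 28 replicate 1 (adjusted p = 0.0833 by edgeR).

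The 4 enzymes grouped here as peroxisomal, EHHADH, ACAA1, ACOX2 and HSD17B4, were all higher at Day 3 and at Day 28. ECI2, of peroxisomes and mitochondria, was grouped with the enzymes for unsaturated chains. Of all genes tested, 40.1% were higher at Day 3 and 38.5% at Day 28. These 4 enzymes included the largest rise of the 27 genes at Day 3. Peroxisomal genes outside the 27 did not all rise. HACL1 and PECR were not called at Day 3, although most of the other peroxisomal enzymes and acyl-CoA synthetases given below were higher. EHHADH, the peroxisomal bifunctional enzyme for straight and dicarboxylic chains, rose to 30.3 times its monolayer level at Day 3 (4.92 ± 0.10) and 10.9 times at Day 28 (3.45 ± 0.10). The level of EHHADH was 109, 105 and 111 CPM on Day 3, 134, 140.2 and 131 on Day 7 and 83.2, 94.3 and 93.6 on Day 10. From then on it was 49.3, 53.1 and 47.1 on Day 14, 56.5, 51.3 and 51.0 on Day 21 and 40.0, 39.1 and 38.0 CPM on Day 28, against 4.53, 3.28 and 3.09 CPM in the monolayer. Day 7 libraries were the highest and Day 28 the lowest of the spheroids, and the monolayer stood far below all of them. In the earlier spheroids ACAA1 had 104, 104 and 108 CPM on Day 3, 100.2, 102 and 109.5 on Day 7 and 91.5, 94.7 and 98.5 on Day 10. Later spheroids held 76.9, 84.4 and 81.1 on Day 14, 85.2, 80.6 and 94.7 on Day 21 and 74.3, 85.1 and 88.3 CPM on Day 28, against 13.2, 17.2 and 16.1 CPM in the monolayer. ACAA1, the peroxisomal thiolase, was thus above the monolayer in every spheroid library, by 2.75 ± 0.087 at Day 3 and 2.40 ± 0.087 at Day 28. ACOX2, the oxidase for branched chains and bile acid side chains, rose by 1.16 ± 0.100 at Day 3 and 1.53 ± 0.10 at Day 28 and had its highest mean at Day 14 (113 ± 4.4 CPM, against 30.7 ± 0.45 in the monolayer). HSD17B4, the bifunctional enzyme for branched and very long chains, rose by 0.86 ± 0.069 and 0.80 ± 0.069, with 568 ± 8.9 CPM at Day 3 and 543 ± 56 at Day 28, against 313 ± 26 CPM in the monolayer. EHHADH spans chromosome 3, 185190624 to 185281990, on the minus strand.

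Of the 2 subunits of the electron transfer flavoprotein, the acceptor of electrons from the acyl-CoA dehydrogenases, ETFB rose on both days and ETFA was higher at Day 3 and lower at Day 28. Over the first 3 days sampled, ETFB stood at 62.4, 65.6 and 63.0 CPM on Day 3, 65.2, 62.0 and 67.5 on Day 7 and 92.4, 96.1 and 78.0 on Day 10. The last 3 days had 87.2, 93.6 and 85.4 on Day 14, 60.1, 53.0 and 53.7 on Day 21 and 64.7, 62.5 and 56.8 CPM on Day 28, against 9.53, 10.2 and 10.9 CPM in the monolayer. ETFB, the beta subunit, was far above the monolayer in all spheroid libraries, most so at Days 10 and 14, with changes of 2.64 ± 0.088 at Day 3 and 2.58 ± 0.089 at Day 28. Up to Day 10, spheroids held ETFA at 244, 236 and 233 CPM on Day 3, 218, 209 and 222 on Day 7 and 188, 191 and 186 on Day 10. After that its level was 171, 151 and 142 on Day 14, 167, 167 and 175 on Day 21 and 159.8, 146 and 138 CPM on Day 28, against 223, 202 and 205 CPM in the monolayer. ETFA, the alpha subunit, was higher by 0.18 ± 0.065 at Day 3 and fell by 0.51 ± 0.066 on the log2 scale at Day 28, where no library overlapped the monolayer. At Day 3 it was no longer called without monolayer replicate 2 (adjusted p = 0.0763 by edgeR) or 3 (0.0578) or Day 3 replicate 1 (0.0539). ETFDH, the dehydrogenase that hands these electrons to ubiquinone, rose by 0.67 ± 0.087 at Day 3 and 1.07 ± 0.087 at Day 28, with 46.7 ± 1.6 and 61.7 ± 10 CPM, against 29.3 ± 1.0 CPM in the monolayer.

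Both genes of ketone body metabolism among the 29 rose at Days 3 and 28, where 40.1% and 38.5% of all genes tested were higher. ACAT1, the thiolase that joins acetyl-CoA units, rose by 0.71 ± 0.060 at Day 3 (211 ± 4.4 CPM, against 129.6 ± 4.1 in the monolayer) and by 0.18 ± 0.060 at Day 28, a value not called without monolayer replicate 1 (adjusted p = 0.0533 by edgeR) or Day 28 replicate 1 (0.0583). BDH1, which reduces acetoacetate to 3-hydroxybutyrate, rose by 2.49 ± 0.33 at Day 3 and 2.19 ± 0.34 at Day 28 at a low level. BDH1 read 2.34, 2.52 and 3.93 CPM on Day 3, 3.07, 3.61 and 3.18 on Day 7 and 2.52, 2.64 and 3.55 on Day 10. It then read 1.68, 1.96 and 2.64 on Day 14, 2.38, 2.49 and 1.63 on Day 21 and 2.40, 1.70 and 3.03 CPM on Day 28, against 0.678, 0.305 and 0.618 CPM in the monolayer. Its spheroid libraries were all above the monolayer and were not called as changing among the spheroid days.

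CREB3L3, a membrane-bound transcription factor of liver that takes part in the fasting response with PPARA, was higher on 5 of the 6 spheroid days. Early spheroids had CREB3L3 at 37.9, 42.4 and 38.3 CPM on Day 3, 51.5, 60.9 and 54.2 on Day 7 and 27.3, 26.1 and 31.5 on Day 10. The older spheroids had 39.7, 42.3 and 42.4 on Day 14, 49.4, 44.5 and 50.3 on Day 21 and 48.8, 43.9 and 37.1 CPM on Day 28, against 27.4, 27.9 and 28.8 CPM in the monolayer. Day 10 overlapped the monolayer (0.01 ± 0.095, not called), all other days were above it, and the changes were 0.50 ± 0.094 at Day 3, 0.99 ± 0.093 at Day 7 and 0.62 ± 0.094 at Day 28. PPARA itself stood at 27.5 ± 2.4 CPM at Day 3 and 37.1 ± 1.9 at Day 28, against 24.8 ± 2.2 CPM in the monolayer, not called at Day 3 (0.15 ± 0.11) and higher at Day 28 (0.58 ± 0.11).

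Within the spheroids, more of the 27 genes were lower than higher at Day 28 against Day 3. Of the 27 tested genes, 25 differed between spheroid days by edgeR's F test, where 76.2% of all genes tested did. ACADS and BDH1 were the exceptions. Day 28 against Day 3 gave 6 genes higher and 12 lower, with 29.5% and 30.2% of all genes, and a median log2 fold change of -0.15 beside 0.00. The median was -0.25 without Day 28 replicate 1, -0.040 without Day 28 replicate 2 and -0.097 without Day 3 replicate 3. The largest falls were those of HADH (-1.59 ± 0.35) and EHHADH (-1.47 ± 0.081), followed by ECHS1 (-0.90 ± 0.068), SLC25A20 (-0.86 ± 0.083), ACAA2 (-0.76 ± 0.074), ETFA (-0.69 ± 0.066), DECR1 (-0.57 ± 0.075), ACAT1 (-0.53 ± 0.060), HADHB (-0.51 ± 0.079), ECI2 (-0.46 ± 0.12) and ACAA1 (-0.35 ± 0.078). ACSL1 was also lower (-0.36 ± 0.15, adjusted p = 0.0329 by edgeR), a call lost in 11 of 21 fits that left out 1 library, and in a fit of only these 2 days (0.0560). The adjusted p of ACSL1 was 0.0985 without Day 3 replicate 1, 0.208 without Day 3 replicate 2, 0.164 without Day 28 replicate 1 and 0.157 without Day 28 replicate 3. It lay between 0.0505 and 0.0571 without monolayer replicate 2 or 3, Day 7 replicate 2, Day 10 replicate 2, Day 14 replicate 1 or 3, or Day 21 replicate 3. Higher at Day 28 than at Day 3 were ACAD11 (1.17 ± 0.33), CPT1A (0.97 ± 0.15), ETFDH (0.40 ± 0.085), ACOX2 (0.37 ± 0.096), ECI1 (0.29 ± 0.080) and ACADVL (0.21 ± 0.089). The call of ACAD11 was lost without Day 28 replicate 2 (adjusted p = 0.0579) and that of ACADVL without Day 3 replicate 2 (0.144) or Day 28 replicate 3 (0.0713) and in a fit of only these 2 days (0.0631).

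**Figure D3:**
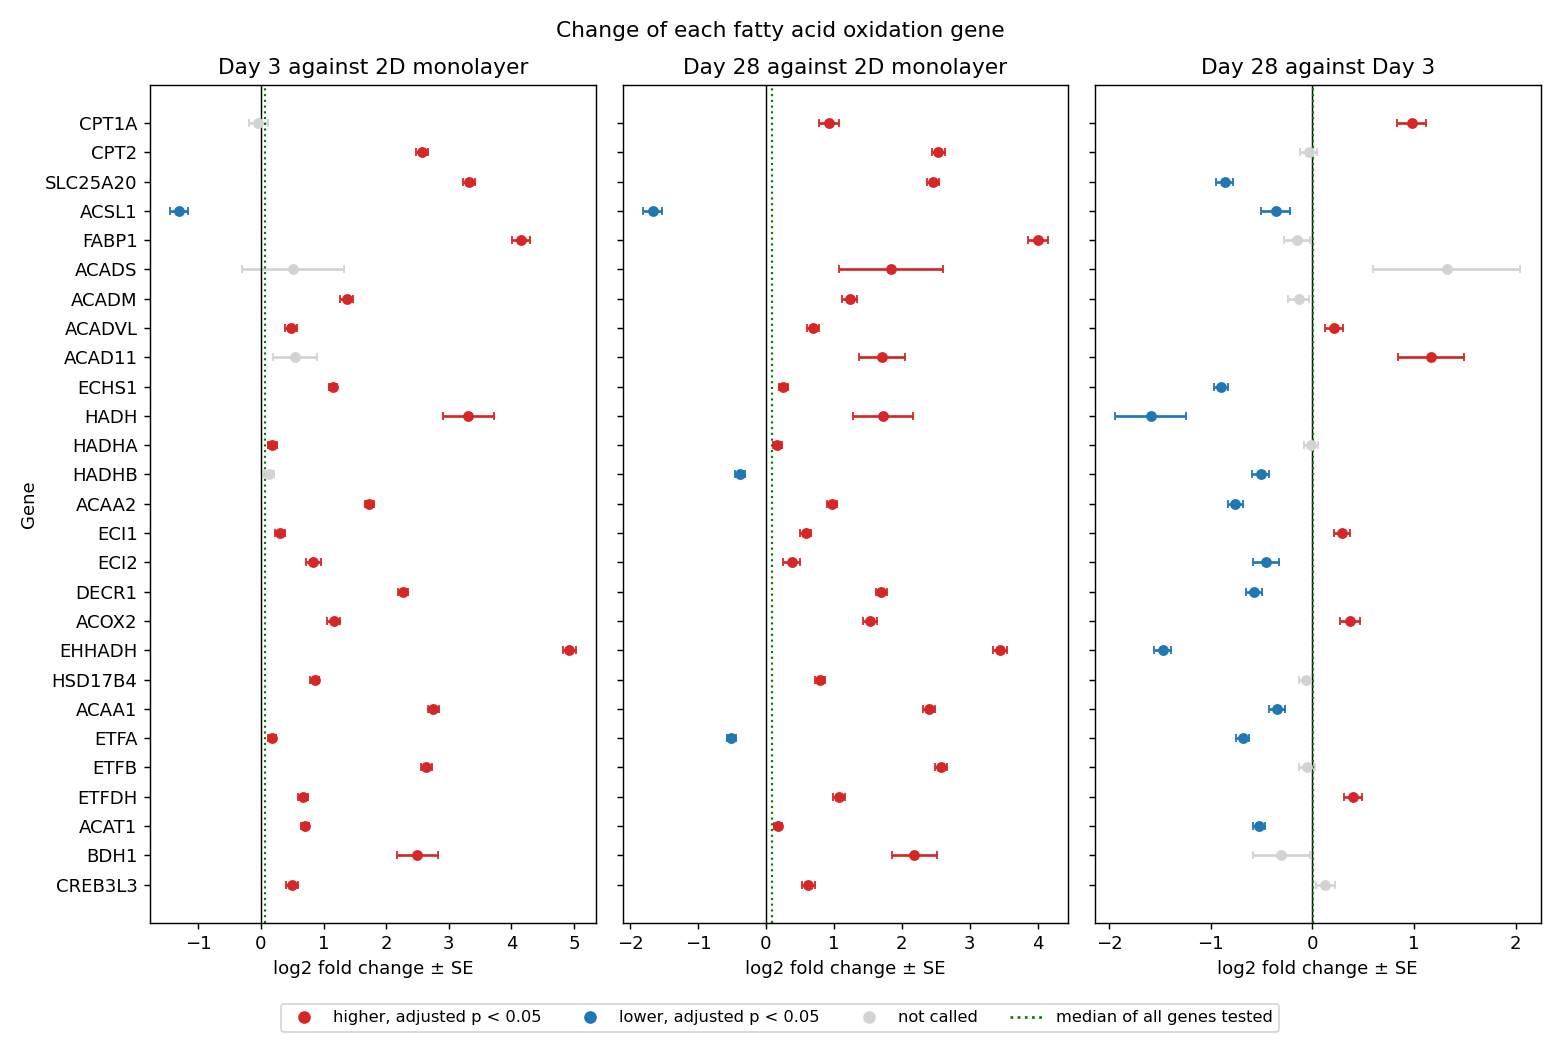
Log2 fold change ± SE of each tested gene at Day 3 and Day 28 against the 2D monolayer and at Day 28 against Day 3, with called rises in red, called falls in blue, uncalled values in grey and the median of all genes tested as a dotted line. Most genes lie right of 0 in the first 2 panels, while 12 lie to the left as called falls in the third.

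Of the 27 genes, 9 had their highest spheroid mean at Day 3 and 9 at Day 7, and 11 had their lowest at Day 28. These are counts of means, some of them closer than their SDs. They were not made over all genes tested, so they cannot show a time course particular to these genes. Day 7 against Day 3 had 9 genes higher and 1 lower (background 10.6% and 8.76%), led by FABP1 (1.15 ± 0.13), ACSL1 (0.79 ± 0.14) and ETFDH (0.56 ± 0.084). Day 10 against Day 7 had 1 higher, ETFB (0.45 ± 0.078), and 8 lower (background 13.9% and 13.5%), with CREB3L3 (-0.97 ± 0.093), ACSL1 (-0.89 ± 0.14) and SLC25A20 (-0.85 ± 0.082) falling most. Day 14 against Day 10 had 6 higher and 11 lower (background 24% and 24.3%). Among the falls were HADH (-1.05 ± 0.34), EHHADH (-0.86 ± 0.079) and FABP1 (-0.83 ± 0.13), and among the rises ACADVL (0.70 ± 0.089), CPT1A (0.65 ± 0.14) and CREB3L3 (0.55 ± 0.094). The fall of HADH was not called without Day 14 replicate 3 (adjusted p = 0.0841 by edgeR). Day 21 against Day 14 had 3 higher and 4 lower (background 13.9% and 12.7%), and Day 28 against Day 21 had 2 higher and 7 lower (background 10% and 14%).

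A wider list of 87 genes of the pathway, of which 78 were tested, gave 50 higher and 15 lower at Day 3 and 50 higher and 13 lower at Day 28, with medians of 0.68 and 0.63. Over all genes tested the shares higher and lower were 40.1% and 37.8% at Day 3 and 38.5% and 34.8% at Day 28, with medians of 0.06 and 0.08. Other mitochondrial genes had 18 of 26 higher and 5 lower at Day 3 (background 40.1% and 37.8%) and 20 of 26 higher and 4 lower at Day 28 (background 38.5% and 34.8%). In the order Day 3, then Day 28, ACADSB, the dehydrogenase for short branched chains, rose by 2.77 ± 0.10 and 2.85 ± 0.10, and ACACB, the acetyl-CoA carboxylase of the mitochondrial surface whose malonyl-CoA inhibits CPT1A, rose by 4.19 ± 0.13 and 3.26 ± 0.13. MLYCD, which breaks malonyl-CoA down, rose by 1.71 ± 0.080 and 2.02 ± 0.081. ACSF2, a medium-chain acyl-CoA synthetase, rose by 3.56 ± 0.15 and 2.20 ± 0.16, HSD17B8, a dehydrogenase of mitochondrial fatty acid synthesis, by 2.57 ± 0.12 and 2.06 ± 0.12, and MMAB, of the cobalamin pathway used by propionyl-CoA, by 2.91 ± 0.11 and 1.71 ± 0.11. ACSM2A, a medium-chain acyl-CoA synthetase of liver, rose by 1.91 ± 0.29 and 5.09 ± 0.25, but its near-identical neighbour ACSM2B could share its counts.

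Other peroxisomal enzymes and acyl-CoA synthetases had 15 of 21 higher and 3 lower at Day 3 (background 40.1% and 37.8%) and 13 of 21 higher and 3 lower at Day 28 (background 38.5% and 34.8%). PHYH, of phytanic acid alpha-oxidation, rose by 1.93 ± 0.10 and 2.29 ± 0.11, and SLC27A2, a very-long-chain acyl-CoA synthetase, by 2.73 ± 0.17 and 2.54 ± 0.17. ACSS1, the mitochondrial acetyl-CoA synthetase, rose by 3.82 ± 0.17 and 2.47 ± 0.17. ACSL5, a long-chain acyl-CoA synthetase, fell as ACSL1 did, with 330.2 ± 11 CPM at Day 3 and 939.8 ± 42 at Day 28, against 5453 ± 239 CPM in the monolayer (-4.05 ± 0.083 and -2.54 ± 0.078). Of its relatives, ACSL3 was also lower (-0.72 ± 0.061 and -0.41 ± 0.061), and ACSL4 (1.73 ± 0.070 and 0.47 ± 0.069) and ACSL6 (2.60 ± 0.30 and 1.01 ± 0.34) were higher; these 3 are named in addition to the rule, to complete the family.

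PPARA, its coactivators and genes known as fasting targets had 5 of 15 higher and 6 lower at Day 3 and 8 of 15 higher and 3 lower at Day 28. With 40.1% and 37.8% of all genes tested higher and lower at Day 3 and 38.5% and 34.8% at Day 28, the Day 3 counts of this list were near the background. PPARGC1A, a coactivator of mitochondrial genes, stood at 26.0 ± 1.1 CPM at Day 3 and 75.8 ± 8.7 at Day 28, against 17.5 ± 1.0 CPM in the monolayer (0.57 ± 0.10 and 2.12 ± 0.10). PLIN2, the lipid droplet coat protein, fell by 1.81 ± 0.071 and 2.24 ± 0.072 on the log2 scale, with 162 ± 8.9 CPM at Day 28 against 764 ± 24 CPM in the monolayer, while UCP2, a mitochondrial carrier, rose by 3.03 ± 0.14 and 1.48 ± 0.14. BDH2, a short-chain dehydrogenase, rose by 2.20 ± 0.074 and 1.31 ± 0.074; the list of ketone body synthesis, use and export that holds it had 5 of 6 higher and 0 lower at Day 3 and 4 of 6 higher and 0 lower at Day 28, against the same background. Regulators and subunits of pyruvate dehydrogenase had 7 of 10 higher and 1 lower at Day 3 (background 40.1% and 37.8%) and 5 of 10 higher and 3 lower at Day 28, the Day 28 counts being near the background of 38.5% and 34.8%. With PDK4 near 0, PDK3, another kinase of the complex, rose by 3.99 ± 0.20 and 3.14 ± 0.20 and PDP1, the phosphatase that reverses its action, fell by 3.70 ± 0.17 and 3.24 ± 0.16 on the log2 scale.

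**Figure D4:**
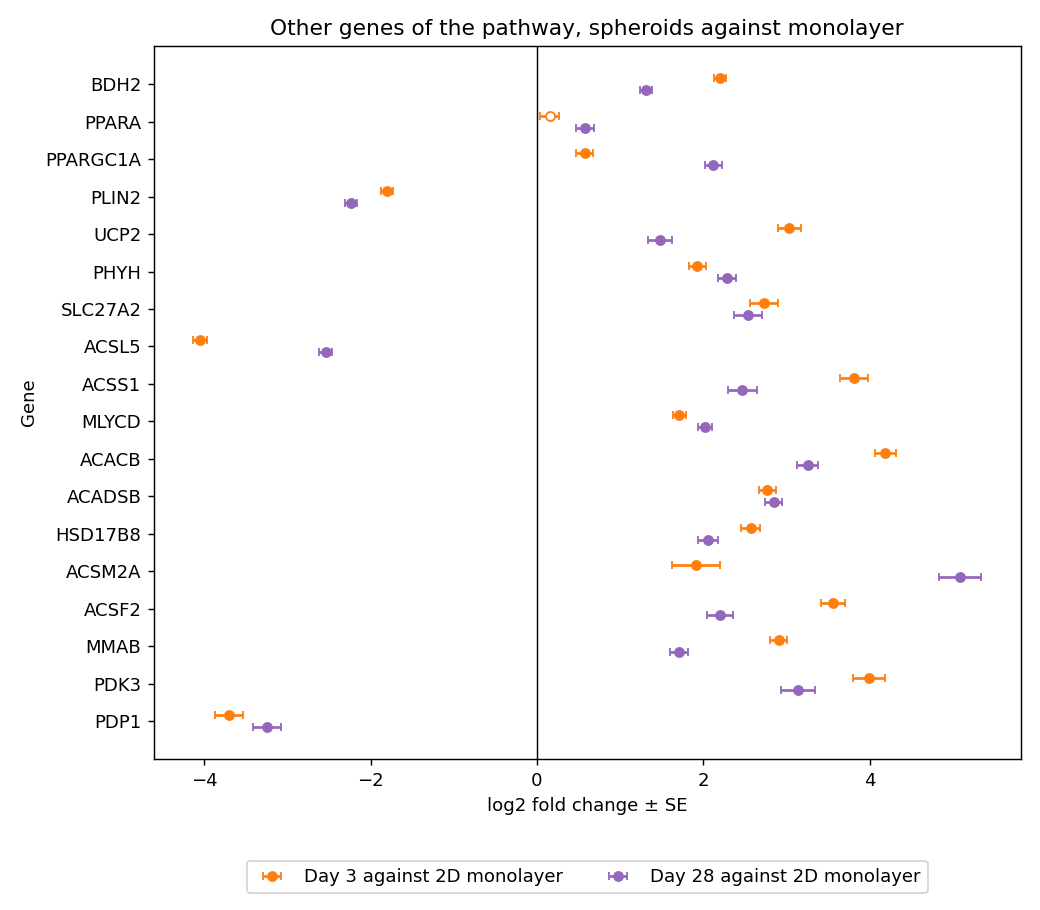
Log2 fold change ± SE of 18 other genes of the pathway at Day 3 (orange) and Day 28 (purple) against the 2D monolayer, with an open point where the change was not called. PLIN2, ACSL5 and PDP1 lie left of 0 on both days, PPARA at Day 3 is the open point, and the highest values are those of ACSM2A at Day 28 and ACACB at Day 3.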

How the data were processed

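TempO-Seq libraries were sequenced for 7 groups of 3. The authors deposited raw counts per gene symbol. Tools listed in the submitters' processing notes, without roles, are STAR 2.7.10b, fastp 0.23.2, bcl2fastq 2.20.422 and DESeq2 1.38.0, with the build GRCh38.p13. The sources used here do not say how several probes of a gene were combined. The 29 genes and the other lists were chosen with earlier results of these data known.

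Counts were analysed with edgeR 4.0.16 in R 4.3.3. filterByExpr with a minimum count of 10 kept 12345 of 19683 genes, the rest holding 0.0108% of counts. Libraries were scaled by TMM, and 1 robust quasi-likelihood model was fitted to all 21 libraries by group (biological coefficient of variation 9.62%, 14 residual degrees of freedom). The median total was 31997292 counts. Replicates differed beyond counting error: chi-square over degrees of freedom ran between 5.68 and 29.7. The alternatives were DESeq2 1.42.0, other scalings, no filter, fits of only the groups compared, a replicate block and left-out libraries. On counts simulated for Day 3 against the monolayer (12057 genes fitted), 48 of 49 genes raised 4-fold, 41 of 49 raised 2-fold, 34 of 48 raised 1.5-fold and 32 of 49 lowered to 0.5 of their level were called, as were 6 of 11862 left unchanged. The simulation left nearly all genes unchanged between groups, whereas in the data 40.1% of genes tested were higher and 37.8% lower at Day 3. Its shares of genes called need not hold for these data.

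All 29 genes were named. Values in each library were given for genes called against the monolayer at Day 3 or 28 with an absolute log2 fold change of at least 2 or in the lower direction, for those called at Day 28 against Day 3 or Day 14 against Day 10 with at least 1, and for CPT1A, ACADM, HADHA, PDK4 and CREB3L3. Other pathway genes were named when called at Day 3 or 28 with at least 2 and a mean of at least 10 CPM in either group, as were PPARA and PPARGC1A. Some genes the rule also named are not reported here.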

Additional observations from a re-analysis of the deposited data

How the results depend on the processing

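The counts of genes called were recomputed with DESeq2, with DESeq2 size factors in edgeR, with libraries scaled by size alone, with no filter on low counts, from only the groups compared, with the replicate number as a block and without each library in turn. Of the recomputed log2 fold changes of single genes, 3516 kept their direction and their side of the threshold, 55 lost a call, 9 gained one and 63, all of values not called, changed sign. Scaling by size alone gave 23 higher at Day 3 against the monolayer (HADHB gained). It gave 21 higher and 1 lower at Day 10 against the monolayer (CPT1A gained, ETFA lost). At Day 14 against Day 10 it gave 7 higher and 10 lower (ACOX2 gained, ACAA1 lost). Over all genes, that scaling called 5697 higher and 3919 lower at Day 3, beside 4955 and 4672 with TMM. At Day 10 against the monolayer it called 5401 and 4195, beside 4936 and 4682. At Day 14 against Day 10 it called 3376 and 2628, beside 2968 and 2999. With no filter there was 1 lower at Day 10 (ETFA lost) and 7 higher at Day 14 against Day 10 (ACOX2 gained). Over all genes, 5009 were then higher and 4662 lower at Day 10. At Day 14 against Day 10, 3019 were higher and 2853 lower. Fits of only the groups compared gave 23 higher at Day 28 against the monolayer (HADHA lost) and 7 higher at Day 14 against Day 10 (ACOX2 gained). At Day 28 against Day 3 they gave 5 higher and 11 lower (ACADVL and ACSL1 lost). Over all genes, these fits called 4424 higher and 4240 lower at Day 28 against the monolayer. They called 2828 and 2943 at Day 14 against Day 10, and 3523 and 3612 at Day 28 against Day 3. The other counts for the 29 genes were as reported under these settings, as were all of them with DESeq2, with its size factors and with the block. Without each library in turn, the counts against the monolayer were 21 to 22 higher and 1 to 1 lower at Day 3, 18 to 20 and 1 to 2 at Day 10, and 20 to 24 and 3 to 3 at Day 28. Day 14 against Day 10 had 6 to 7 higher and 10 to 11 lower, Day 28 against Day 3 had 5 to 6 and 11 to 12, and 24 to 25 changed among the spheroid days.

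Scaling by size alone moved the median log2 fold change of all genes against the monolayer to 0.27 at Day 3, 0.19 at Day 10 and 0.30 at Day 28, beside 0.06, 0.05 and 0.08 with TMM. Under it the sign changed to 0.17 for CPT1A at Day 3 against the monolayer, to 0.075 for HADHA and 0.043 for HADHB at Day 10 against the monolayer, and to 0.0046 for CPT2, 0.022 for SLC25A20 and 0.054 for ETFB at Day 14 against Day 10. With no filter it changed to 0.0089 for ETFB at Day 14 against Day 10 and to 0.012 for HADHA at Day 28 against Day 3. Values whose sign depended on 1 library ranged, at Day 14 against Day 10, from -0.44 to 0.027 for ACAD11, -0.088 to 0.072 for ETFB and -0.13 to 0.057 for SLC25A20; at Day 10 against the monolayer, from -0.48 to 1.74 for ACADS, -0.093 to 0.082 for CREB3L3 and -0.15 to 0.0020 for HADHA; at Day 3 against the monolayer, from -0.20 to 0.087 for CPT1A; at Day 28 against Day 3, from -0.12 to 0.073 for CPT2, -0.074 to 0.027 for ETFB, -0.29 to 0.0077 for FABP1, -0.057 to 0.062 for HADHA and -0.13 to 0.024 for HSD17B4. The cause of these changes was not tested.

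The replicate numbers did not pair the libraries: deviations of same-numbered libraries from their group means correlated between -0.060 and 0.099. With the replicate block the counts were 22 higher and 1 lower at Day 3, 20 and 2 at Day 10 and 24 and 3 at Day 28 against the monolayer, 6 and 11 at Day 14 against Day 10, 6 and 12 at Day 28 against Day 3, and 25 among the spheroid days. Counts were fewest for PDK4 (9), ACADL (16) and ACADS (232 in all libraries). Whether depth, the probes or a low RNA level limited them was not tested. All groups came from 1 cell line, proliferation and hepatocyte markers moved with the groups, and a probe assay reads RNA level only, not enzyme activity or flux.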

Other observations

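After Day 10 a few of the genes went up and down in alternation. CPT1A, the malonyl-CoA-inhibited entry step, changed by 0.65 ± 0.14 at Day 14 against Day 10, -0.83 ± 0.14 at Day 21 against Day 14 and 0.90 ± 0.15 at Day 28 against Day 21, all called by edgeR. ACADVL, the very-long-chain acyl-CoA dehydrogenase, changed by 0.70 ± 0.089 at Day 14 against Day 10, -0.65 ± 0.089 at Day 21 against Day 14 and 0.43 ± 0.089 at Day 28 against Day 21. ECHS1 changed in the opposite order, by -0.44 ± 0.068 at Day 14 against Day 10, 0.20 ± 0.067 at Day 21 against Day 14 and -0.36 ± 0.068 at Day 28 against Day 21. Over all 12345 genes tested, 1026 were called in all 3 of these comparisons, 353 of them higher, lower and higher in turn (2.86% of the genes tested) and 363 lower, higher and lower (2.94%). Neighbouring comparisons share the libraries of 1 day with opposite sign, and each day is 1 set of 3 libraries. These genes were singled out after their values were seen.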
